A study of Mus musculus with 2 samples.

Results

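The mouse genome holds 2 copies of the miR-128 gene, Mir128-1 in an intron of R3hdm1 and Mir128-2 in an intron of Arpp21. They were taken by identifier from a table of 1973 miRNA loci, so the members are 2 of 1973 rows. The rule itself used no measured value. Small RNAs were sequenced from whole forebrain of newborn mice (strain B6NCrl, postnatal day 0), with replicate 1 from pup 1, replicate 2 from pup 3 and no pooling of animals. The series holds 1 group of 2 libraries, without a treatment, a mutation or a second age, and the sex of the pups was not collected. The labels name a shared donor for the pups, and they were taken as separate animals.

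A miRNA is cut as a duplex from a hairpin precursor, and 1 arm of the duplex, held by an Argonaute protein, pairs through its seed (bases 2 to 8 from the 5′ end) with messenger RNAs and represses them. miR-128 is among the abundant miRNAs of the brain, is enriched in neurons, and is known for limiting neuronal excitability in the mouse. Its hosts are related genes: R3hdm1 and Arpp21 encode proteins with an R3H domain, a fold that binds nucleic acids, and Arpp21 is a cAMP-regulated phosphoprotein known from the striatum and cortex.

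Mir128-1 (ENSMUSG00000065520.1) lies on chromosome 1, plus strand, from 128202361 to 128202430, and Mir128-2 (ENSMUSG00000065441.1) on chromosome 9, minus strand, from 112118636 to 112118711 (GRCm38, the assembly of mm10). Their hairpins were compared because the sequence they share decides which reads can be given to a copy. In RefSeq's hairpins of GRCm38, written 5′ to 3′, capitals mark the longest run of bases found in both:
Mir128-1: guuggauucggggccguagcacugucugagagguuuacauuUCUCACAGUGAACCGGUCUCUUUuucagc
Mir128-2: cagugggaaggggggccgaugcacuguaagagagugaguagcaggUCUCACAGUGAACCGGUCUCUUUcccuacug
The run is 23 nt long and covers bases 42 to 64 of the 70 nt of Mir128-1 and bases 46 to 68 of the 76 nt of Mir128-2.

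The mature arms are given next, with the seed in capitals, since the 3p arm is common to both copies and the 5p arms are not. The 3p arm of miR-27, known for its role in adipose tissue, is shown beside them because its seed overlaps that of miR-128:
miR-128-3p: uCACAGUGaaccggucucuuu
miR-128-1-5p: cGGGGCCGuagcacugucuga
miR-128-2-5p: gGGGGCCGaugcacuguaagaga
miR-27a-3p: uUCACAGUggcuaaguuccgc
miR-27b-3p: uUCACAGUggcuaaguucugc
The 21 nt of miR-128-3p were the same in both copies. The 5p arms, read from their 5′ ends, matched at 16 of 21 positions and differed by C1G, U9A, A10U, C18A and U19A (base of miR-128-1-5p, position, base of miR-128-2-5p), and miR-128-2-5p was 2 nt longer. Both 5p arms nevertheless carried the seed GGGGCCG. Among 1738 mature entries of 1058 loci in RefSeq's table, the seeds CACAGUG and GGGGCCG each occurred at 2 loci, the copies of miR-128. miR-128-3p and miR-27a-3p shared a run of 8 nt, bases 1 to 8 of the former and 2 to 9 of the latter, so the seeds are offset by 1 base.

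Both copies lay on the strand of their host. Mir128-1 lay in intron 19 of the principal transcript of R3hdm1, which has 27 exons, an intron of 14107 nt, 5263 nt after the upstream exon and 8774 nt before the downstream one. The hairpin began 99.0 kb from the transcript start. It fell in the same intron in the 2 annotated transcripts of R3hdm1 that span it, and in both this intron separated coding exons. Mir128-2 lay only 471 nt after the upstream exon in intron 17 of the shorter of the principal transcripts of Arpp21, which has 19 exons, an intron of 51873 nt, with 51326 nt to the next exon, and 69.1 kb from the transcript start. In the longer principal transcript the hairpin lay 116.3 kb from the transcript start, in an intron of the same length. Of the 9 Arpp21 transcripts that span it, 7 were protein coding, and 1 of these had a shorter intron of 2415 nt with the same upstream exon boundary. No gene other than the host lay within 10 kb of either hairpin, so each is a lone miRNA and not a member of a cluster.

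**Figure D1:**
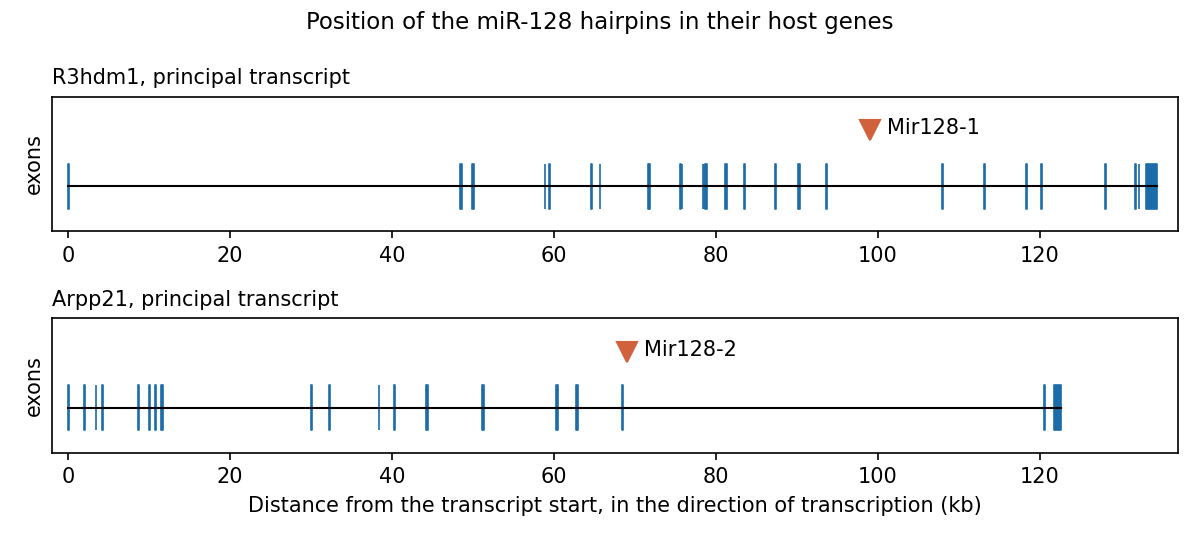
Exons (bars) and introns (line) of a principal host transcript of each copy, drawn to scale against the distance from the transcript start in kb, with a triangle at the miR-128 hairpin. Mir128-1 sits at 99.0 kb in an intron of 14107 nt, and Mir128-2 at 69.1 kb, beside the upstream exon of an intron of 51873 nt. In the longer principal transcript of Arpp21, not drawn, Mir128-2 lies at 116.3 kb.

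Both copies were among the more abundant loci of the newborn forebrain, and the copy in R3hdm1 was the higher in each pup. Mir128-1 had 29525 counts in pup 1 and 27516 in pup 3, of library totals of 2742746 and 2427066 counts on the strand of a miRNA locus. These are 1.08% (95% exact Clopper-Pearson interval 1.06 to 1.09%) and 1.13% (1.12 to 1.15%), a mean of 1.11% ± 0.0405 (SD, n = 2). It stood at rank 17 in pup 1 and 16 in pup 3.

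Mir128-2 had 10582 counts in pup 1 and 10459 in pup 3. Its share was 0.386% (0.379 to 0.393%) in pup 1 and 0.431% (0.423 to 0.439%) in pup 3, a mean of 0.408% ± 0.0319 (SD, n = 2), at ranks 50 and 40. The ranges of the copies did not overlap, since the lower value of Mir128-1 was above the higher value of Mir128-2. No molecular identifiers are named, so amplified copies cannot be removed and the intervals cover counting error only.

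The copies together held 40107 counts in pup 1 and 37975 in pup 3, or 1.46% (1.45 to 1.48%) and 1.56% (1.55 to 1.58%). The mean was 1.51% ± 0.0724 (SD, n = 2). Set against single loci of the other miRNAs, which were not summed, this sum would have stood at rank 13 in pup 1 and 14 in pup 3. It leaves out reads that match both copies, so it is not the rank of miR-128 as a miRNA.

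Neither copy gave a read on the opposite strand. Its count was 0 in both pups. The approximate upper 95% limit for a count of 0 is 3 counts per locus. That is 1.09 CPM (counts scaled to a total of 1000000 on the gene strand) in pup 1 and 1.24 in pup 3. Of 331 loci detected, with at least 10 counts in both pups, 31 had a count on the opposite strand. Counting both strands together therefore left the counts of the copies as they were.

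Relative to library totals, few loci overlapped Mir128-1 in level and many overlapped Mir128-2. With DESeq2 size factors the coefficient of variation of Mir128-1 between the pups was 18.9%, against 3.66% with totals. Overlap was not counted with size factors. Mir128-1, at 11051 ± 405 CPM (SD, n = 2), had 10765 CPM in pup 1 and 11337 in pup 3. Its neighbours in mean level were Mir181c, with 12486 and 11703 CPM, and Mir17, of the miR-17-92 cluster known from dividing cells, with 10001 and 10417 CPM, and neither overlapped it. Of all loci, 1 overlapped its range, Mir26b, with 10830 CPM in pup 1 and 8380 in pup 3. In pup 1 these 2 loci were close, with 29704 counts for Mir26b and 29525 for Mir128-1. Their order in that pup was not tested. Mir128-2, at 4084 ± 319 CPM, had 3858 CPM in pup 1 and 4309 in pup 3. Its neighbours Mir429, an epithelial miRNA, with 2361 and 5822 CPM, and Mir143, of smooth muscle, with 4307 and 3698 CPM, both overlapped it, and in all 16 loci between ranks 35 and 55 did.

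The loci nearest to each copy were found by the distance between their pairs of log2(CPM + 1) values, over 2 libraries. Nearest to Mir128-1 were Mir17 (distance 0.16), Mir181c (0.22) and Mir22 (0.25). Nearest to Mir128-2 were Mir20a (0.08), Mir16-1 (0.09) and Mirlet7f-2 (0.23). These distances describe level in 2 animals and show no likeness across cell types.

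The balance between the copies was close in the pups. Mir128-1 had 2.79 counts for each count of Mir128-2 in pup 1 and 2.63 in pup 3, a mean of 2.71 ± 0.113 (SD, n = 2), or 1.44 ± 0.06 on the log2 scale. As a share of the counts of both copies, Mir128-1 held 73.6% (95% exact Clopper-Pearson interval 73.2 to 74.0%) in pup 1 and 72.5% (72.0 to 72.9%) in pup 3. The share fell by 1.16 percentage points from pup 1 to pup 3, which was beyond counting error (Fisher's exact test, two-sided, p = 0.000274). This compares 2 libraries, and with 1 animal a side it has no replicate check.

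What these counts can say of miR-128 is bounded by the shared run. Reads that map to several places are kept in a row of their own, so a read that lies wholly within the 23 nt is counted at neither copy. That holds for miR-128-3p at its annotated ends, and with exact matching the level of the 3p arm is not in these values. Of the 50 windows of 21 nt in the hairpin of Mir128-1, 3 also occurred in Mir128-2. The number fell to 1 for windows of 23 nt and to 0 from 24 nt on. None of the other hairpins among the 1005 searched shared a window of 18 nt with either copy. This search covered hairpins and not the whole genome.

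The boundary of the run lies at the 3′ end of the 3p arm. The annotated miR-128-3p ends on the last base of the run, and the next base is U in Mir128-1 and C in Mir128-2. A 3p read that goes on for 1 base beyond the annotated end can thus be given to a copy, as can any read of a 5p arm. A 3p read with a U added after transcription would also match Mir128-1. The tables do not split a locus into arms, so the 2.71-fold difference between the copies may concern 5p reads, longer 3p reads or both, and these cannot be told apart. It is a ratio of assignable reads and not of the transcription of R3hdm1 and Arpp21. Reads that map to several places numbered 2810170 in pup 1 and 2596301 in pup 3, or 70.1 and 68.4 for each miR-128 count, and how many of them are miR-128-3p was not tested.

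Among loci that share 1 arm with another locus, Mir128-1 had the highest mean level. Of 53 loci with a row and with exactly 2 different annotated arms, 1 of which another locus also has, 35 were detected (66.0%). Mir128-1 ranked 1 and Mir128-2 ranked 5 among the 53 by mean level. Of 16 loci with both arms shared, 2 were detected (12.5%), and of 513 loci with neither arm shared, 222 (43.3%). Reads that lie wholly within a shared arm are counted at no locus, and with both arms shared few reads can be assigned at all. These ranks and shares therefore describe assignable reads and not the level of the miRNAs.

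The copies of miR-128 were placed among other miRNAs with exactly 2 numbered copies. Of 43 such families in the annotation, 20 had at least 10 summed counts at each copy. The ratio of copies was taken here with 0.5 added to each count. In 19 of the 20 families the copies share 1 annotated arm. Reads that match both copies are counted at neither, so these are ratios of assignable reads and not of the levels of the copies. In 10 families the copies differed less than those of miR-128, and in 9 more. The next below were Mir129, whose copies differed by 2.62-fold with copy 2 the higher, and Mirlet7c, by 2.18-fold, also with copy 2 the higher. The next above were Mir19b, by 3.25-fold, and Mir26a, by 3.47-fold, but these rest on few counts, with 10 and 3 counts at Mir19b-2 and 37 and 27 at Mir26a-1. The range ran from 1.01-fold for Mir7 to 97.2-fold for Mir181b. The balance of the miR-128 copies changed by 0.08 on the log2 scale between the pups, the fifth smallest change of the 20, against a median of 0.25. This order mixes families of unlike depth, and those with few counts, such as Mir19b at 1.07, carry more counting error. The 4 that changed less were Mir16 (0.02), Mirlet7c (0.03), Mir138 (0.03) and Mir181b (0.07).

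**Figure D2:**
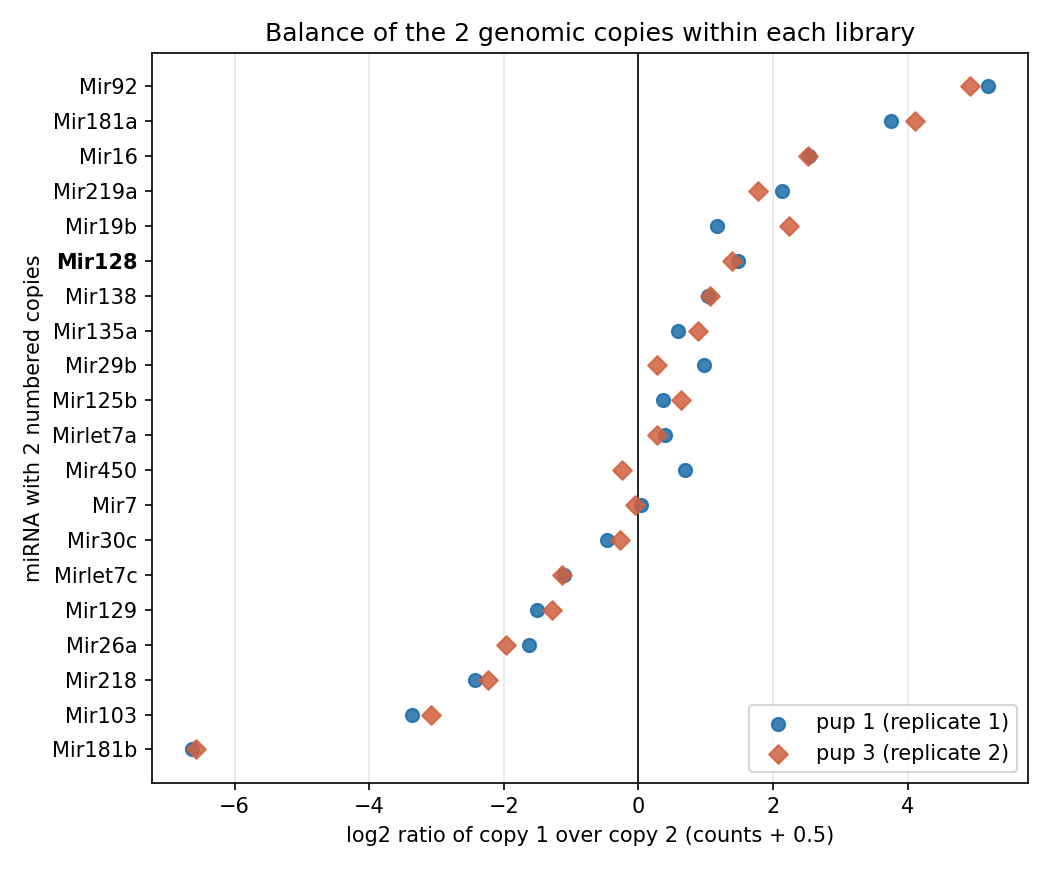
Log2 ratio of copy 1 over copy 2 (horizontal axis, 0.5 added to each count) in each pup for 20 miRNAs with 2 numbered copies; circles are pup 1 and diamonds pup 3. The points of Mir128 lie at 1.48 and 1.40, with copies of 10 families closer together and of 9 farther apart.

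Among the loci listed as neuron-enriched, the copies of miR-128 came next after Mir137. The list holds 15 loci, was taken from an earlier look at these data, and was detected at 13. Mir137, a neuronal miRNA known for its role in neuron maturation, led with 28264 CPM in pup 1 and 23308 in pup 3, above Mir128-1 in both. After Mir128-2 came Mir153, in the host Ptprn2, with 4077 and 2237 CPM, which overlapped Mir128-2, and Mir132, a miRNA induced by neuronal activity, with 2082 and 1776 CPM. The whole list held 5.22% of the counts in pup 1 and 4.52% in pup 3. The copies of miR-128 made up 28.0% of that sum in pup 1 and 34.6% in pup 3. The lowest loci were those of miR-124, with between 2 and 21 counts at a copy in either pup. miR-124 has 3 copies, and reads that map to more than 1 of them are in no locus, so these counts do not give its level, and the sum of the list and the shares of it leave such reads out.

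**Figure D3:**
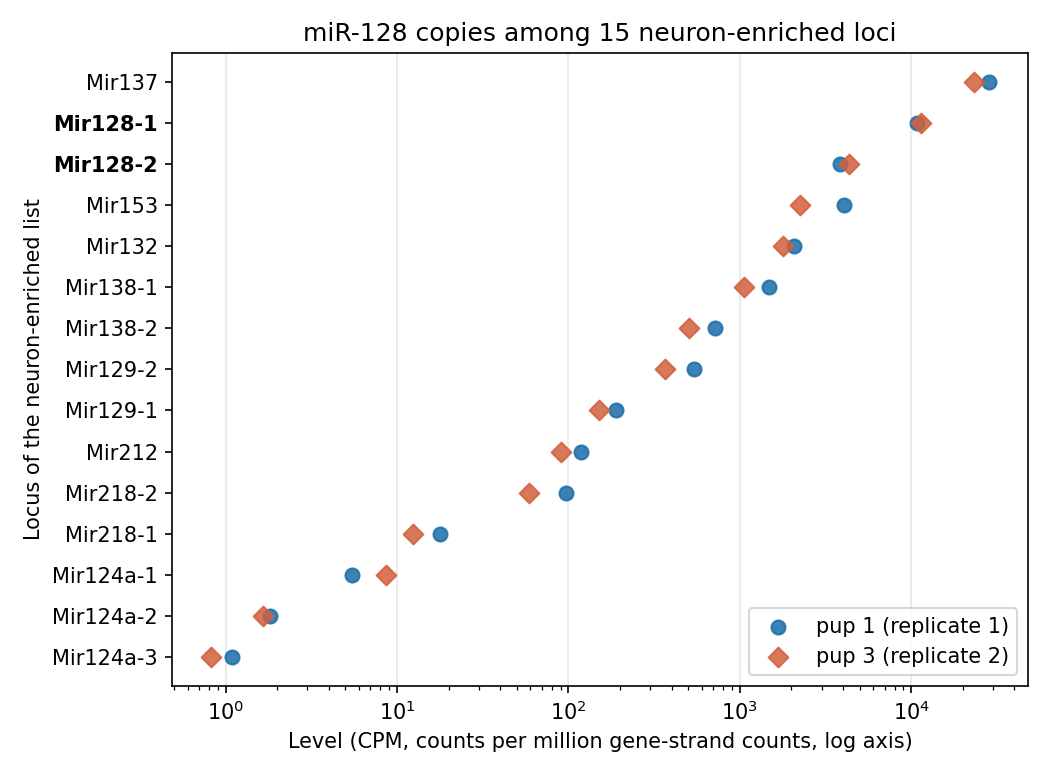
Level in CPM (log axis) of the 15 neuron-enriched loci in pup 1 (circles) and pup 3 (diamonds), ordered by mean level. Mir128-1 and Mir128-2 stand below Mir137, and their diamonds lie to the right of their circles, as for Mir124a-1 and unlike the other 12 loci.

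Both copies took a slightly larger share in pup 3. Mir128-1 had a log2 ratio of CPM + 1, pup 3 over pup 1, of 0.07 (two-sided Fisher's exact test of its counts against all others, Benjamini-Hochberg adjusted p = 1.62e-09), and Mir128-2 one of 0.16 (adjusted Fisher's exact p = 3.82e-15). Of the 400 loci tested, with at least 10 summed counts, 56.5% passed in either direction and 10.2% were higher in pup 3. Each side is 1 pup, so the test compares libraries, and at this depth it passes differences of a few percent. The coefficient of variation of CPM between the pups was 3.66% for Mir128-1 and 7.81% for Mir128-2, against a median of 18.1% over the 331 detected loci, of which 35 and 71 varied less than the respective copy. These values are relative to library totals. With DESeq2 size factors the order turned, with 18.9% for Mir128-1 and 23.0% for Mir128-2 against a median of 13.0%, and 226 and 250 of the 331 loci varied less.

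The scale of the libraries moved the size of the difference between the pups but not its direction. The median log2 ratio of the tested loci was −0.31, and relative to it the copies were at 0.39 and 0.47. With DESeq2 size factors the ratios were 0.39 for Mir128-1 (exact binomial test, adjusted p = 1.75e-223) and 0.47 for Mir128-2 (adjusted exact binomial p = 3.22e-123). On that scale 45.2% of the loci passed, 24.5% higher and 20.8% lower, against 10.2% and 46.2% with totals. With TMM library sizes the copies were at 0.33 and 0.41, with 46.5% of the loci past the threshold, 20.5% higher and 26.0% lower.

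**Figure D4:**
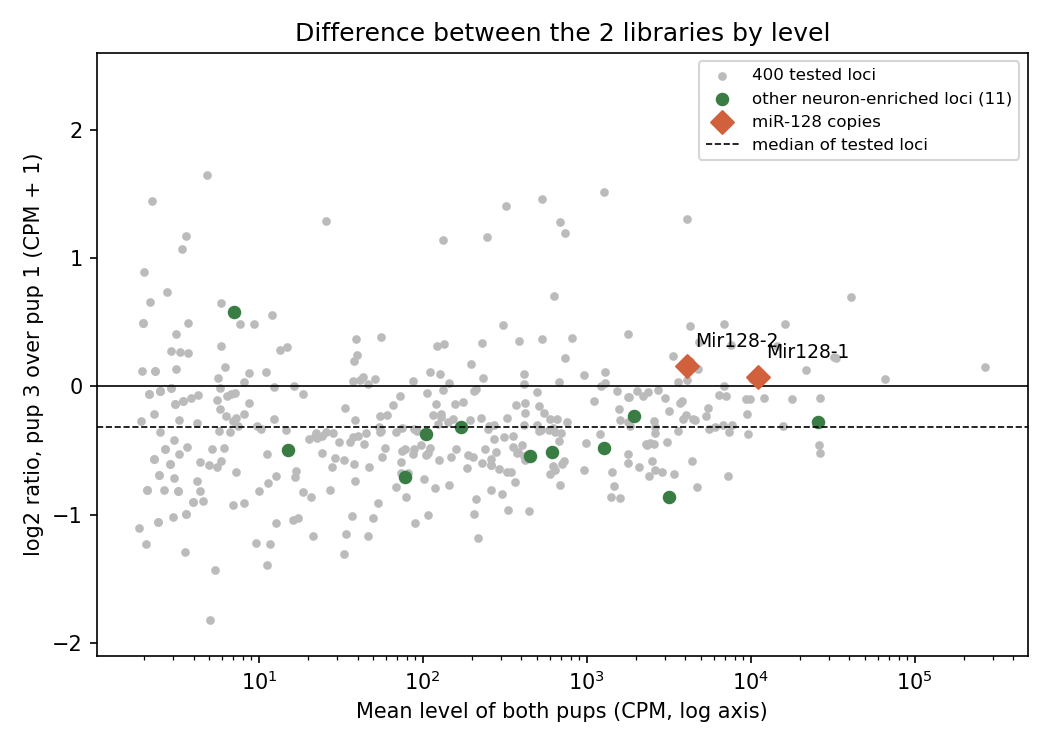
Log2 ratio of pup 3 over pup 1 against mean level in CPM (log axis) for the 400 tested loci, with the miR-128 copies as diamonds and the other 11 tested neuron-enriched loci in green; the dashed line is the median of all tested loci, −0.31. The copies lie at 0.07 and 0.16, above 0 and above the dashed line.

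Within the neuron-enriched list the copies of miR-128 were the loci that passed as higher in pup 3. Of the 13 tested, these 2 were higher, 9 were lower and the other 2 missed the threshold. Over all 400 tested loci 10.2% were higher and 46.2% lower, so 2 of 13 is near the share of all loci. The median of the list was −0.37, beside −0.31 over all tested loci. Mir137 had a log2 ratio of −0.28, Mir153 of −0.87 and Mir132 of −0.23, and all 3 passed as lower. With size factors 4 were higher, namely both copies of miR-128, Mir137 (0.04) and Mir132 (0.08), and 5 were lower, among them Mir153 (−0.55), beside 24.5% and 20.8% of all tested loci.

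A list of 35 miRNAs in introns of protein-coding hosts, as both copies are, gave another setting for them. The list is a selection and does not hold every such locus. All 35 were tested, and 5 were higher in pup 3, 23 lower and 7 missed the threshold, beside 10.2% higher and 46.2% lower over all tested loci. The median of the list was −0.28. Its higher loci were Mir128-1, Mir128-2, Mir126a of blood vessels (0.22), Mir28a (0.71) and Mirlet7g (0.06). With size factors 13 were higher and 6 lower, beside 24.5% and 20.8% of all tested loci. In mean level Mir128-1 ranked 6 and Mir128-2 ranked 11 of the 35. Some of the 35, such as the copies of Mir26a, share an arm with another locus and lose the reads that match both. The ranks are thus of assignable reads.

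The loci whose seed overlaps that of miR-128 stood far lower, and both were lower in pup 3 relative to library totals. Mir27b had 2013 counts in pup 1 and 1107 in pup 3, and Mir27a had 250 and 157. The copies of miR-128 together held 17.7 times the counts of Mir27a and Mir27b in pup 1 and 30.0 times in pup 3. These are counts of loci. They do not compare the 3p arms that carry the overlapping seeds, since miR-128-3p at its annotated ends is counted at neither copy. With totals both passed as lower in pup 3 (log2 ratio −0.69 for Mir27b and −0.49 for Mir27a), where 46.2% of tested loci did. With size factors Mir27b was lower (−0.37) and Mir27a, at −0.17, did not pass.

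Markers of other tissues were summed as a limited check of the labelled tissue. Lists of oligodendrocytes, blood and blood vessels, which forebrain itself can hold, are given beside them and are no such check. In CPM summed over each list, liver loci had 261 in pup 1 and 231 in pup 3, muscle 24.4 and 45.3 (3 of 6 loci at 0), blood 232 and 218 (4 of 5 loci with a row), hindbrain and spinal cord 234 and 260, and oligodendrocyte 729 and 550. Blood vessel loci had 34960 and 39382 CPM, of which Mir126a had 30517 and 35573. Relative to totals Mir126a was higher in pup 3, as the copies of miR-128 were, and the other 2 loci of that list, Mir143 (log2 ratio −0.22) and Mir145a (−0.29), were lower. The epithelial Mir429, in none of these lists and named above for its rank beside Mir128-2, was higher in pup 3 as well, at 1.30. The part of blood vessels or epithelium in the difference of miR-128 between the pups was not tested, and more cells of a type and more RNA per cell cannot be told apart in whole forebrain.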

How the data were processed

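For each library the authors deposited raw counts of reads per miRNA gene, with no scaling, on mm10 with annotation M4, per the labels and the accompanying text. The sources used here do not name the aligner or the counter. Gene-strand counts were used, and the 4 rows that name no gene (multiple mapping: 42.2% of reads in pup 1 and 44.1% in pup 3) were left out of totals.

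Names and hosts came from GENCODE M21 for the same assembly, in which 1894 of 1973 identifiers matched. Both miR-128 identifiers have a later version suffix there, so the interval counted may differ from the one given. Sequences came from RefSeq (GRCm38), where both copies matched.

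A single group leaves edgeR's quasi-likelihood test without a contrast. Loci with at least 10 summed counts were compared between the libraries by Fisher's exact test, and by an exact binomial test with TMM (edgeR) or DESeq2 scaling, with Benjamini-Hochberg adjustment at 0.05. The test was checked on simulated counts, and its p-values cover counting error only. Alternatives were the strand, denominator, scale, filter, pseudocount and leaving out a replicate.

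The members and lists were chosen with earlier results of these data known. By rule, the loci named are those nearest in level, the 3 highest others of the neuron-enriched list, the families next to miR-128 in ratio and loci with a shared or overlapping seed. Mir7, Mir16, Mir138, Mir181b, miR-124, Mir126a, Mir28a, Mirlet7g, Mir429, Mir143, Mir145a and Mir26b were named after their values were seen. Software was edgeR 4.0.16, DESeq2 1.42.0 and R 4.3.3, with scipy 1.17.1, pandas 2.3.3, numpy 2.4.6 and matplotlib 3.10.9 under Python 3.11.15.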

Additional observations from a re-analysis of the deposited data

How the results depend on the processing

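The shares follow their denominator. With all reads of the table as the denominator, Mir128-1 held 0.456%, Mir128-2 0.168% and both 0.624%, and without the most abundant locus, Mir99a, 1.51%, 0.560% and 2.07%. Leaving out each replicate gave 1.08 to 1.13% for Mir128-1, 0.386 to 0.431% for Mir128-2, 1.46 to 1.56% for their sum and 1.40 to 1.48 for the log2 ratio of the copies. For each copy, the settings of strand, scale, filter and pseudocount kept the direction of its difference between the pups and its side of the threshold. With the replicates left out counted too, 37 values stayed within the spread or the call of the main value and 6 moved. The values with a replicate left out could not move, since with 2 libraries each lies within 1 SD of the mean. With no opposite-strand counts at the copies, counting both strands could not move their ratio either. The filter leaves the ratio of each copy between the pups as it is, and the pseudocount does not enter the test. The 37 is thus no measure of stability. The coefficients of variation with size factors (18.9% for Mir128-1 and 23.0% for Mir128-2) were added after seeing the data, and turn the comparison with the median of detected loci. Loci that passed between the libraries numbered 226 with totals (41 higher, 185 lower), 181 with size factors (98 and 83) and 186 with TMM (82 and 104). More were lower than higher with totals and TMM and fewer with size factors, yet these settings are among the 37. With at least 100 summed counts at each copy, copies differed less than those of miR-128 in 8 of 13 families. No paired analysis was possible because the series holds 1 group. Depth limits little at these counts, while reads mapping to several places are in none of them.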
